A study of Sus scrofa with 23 samples.

Results

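The comparison is between 2 libraries of porcine morulae made by somatic cell nuclear transfer, 1 from a Duroc donor cell line (NT-D) and 1 from a Laiwu donor cell line (NT-LW), out of 23 libraries with deposited values. It was taken as given, so the members are the 8603 genes of the deposited table, read in 1 library a side. That table is named as one of differentially expressed genes, so every share below is a share of genes already chosen for differing somewhere in the study. About 5 to 10 embryos had been pooled for each cloned sample, and their RNA was amplified and sequenced. The donors were ear fibroblasts of 1 boar of each breed, both 1-year-old, and the recipients were enucleated oocytes of hybrid sows matured in vitro. Neither donor line is described as edited or treated. PZM3 medium is named for the oocytes with donor cells before fusion. The cloned embryos were then cultured in vitro at low oxygen, in a medium that the paper does not name. The in vivo fertilized Duroc morula (IV-D), also 1 library, stood as the reference, and the sire of those embryos was the boar that gave the Duroc donor cells. Cloned embryos of both groups were all male, whereas IV-D embryos were not sexed and both sexes were pooled. The paper notes that this may alter expression, above all of sex chromosome genes, so X-linked values beside IV-D carry that difference. Breed, donor animal, pool and library coincide in this design and cannot be told apart, no value has a replicate error, and no p-value was computed. Pooled RNA also does not separate fewer embryos or cells of a kind from less RNA per cell.

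A morula is the stage at which cleaving cells compact against each other and the outer ones start toward trophectoderm, the first epithelium of the embryo. The transcripts stored in the oocyte are cleared by then in a normal embryo, and the embryo's own genome, in the pig switched on mainly around the 4-cell stage, supplies the RNA. In a clone that genome comes from a somatic nucleus, which has to be reprogrammed in the same interval.

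Expression was given as FPKM, the fragments per kilobase of gene and per 1000000 fragments of the library. Depth was 18896560 fragments for the NT-D morula, 17635598 for the NT-LW morula and 21077697 for the IV-D morula. Over all libraries it ranged from 14952784 to 22991067, with NT-D at the median, NT-LW below it and IV-D above it. A gene counted as tested with FPKM of at least 1 in either clone, and as called with a gap of over 1 in log2(FPKM + 1). Intervals beside a fold are exact 95% intervals from the fragments and cover counting error only. The label of the stage was checked against markers. Of 11 embryo markers 8 were in the table, without POU5F1, SOX2 and CDX2, and all 8 were at FPKM of 1 or more in both clones. Their summed FPKM was 530 in NT-D, 144 in NT-LW and 471 in IV-D, and 2 of them, KRT8 and KRT18, were called higher in NT-D. The pluripotency factor NANOG was at 5.55 in NT-D and 6.75 in NT-LW. The cadherin CDH1 was at 35.7 and 43.7, but it was also at 17.0 in the recipient oocyte. Markers of the donor fibroblasts were low, with 6 of 10 in the table, 3 of them at FPKM of 1 or more in each clone, at a summed FPKM of 7.04 in NT-D and 9.13 in NT-LW. Of the 8 cumulus markers used for this check, HAS2 alone was in the table, at 0 and 0.242. Oocyte markers stood apart: 9 of 10 were in the table, and their summed FPKM was 379 in NT-D, 66.0 in NT-LW and 9.28 in IV-D, where NANOG was at 7.73.

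Of 7895 genes tested, 1117 were called higher in NT-D (14.1%) and 554 lower (7.02%), while the median difference over all of them was 0.04 on the log2 scale. The calls higher in NT-D included 15 of 19 listed oocyte transcripts and the keratins KRT8 and KRT18, and the largest differences lower in NT-D were those of the membrane protein FXYD3 and the activin inhibitor follistatin (FST). Of the genes higher in NT-D, 240 differed by more than 2 on the log2 scale, against 59 of those lower. The morula was the stage at which the clone groups had the lowest correlation, with Pearson's r of 0.928 across the genes on log10(FPKM + 1), against 0.963 to 0.980 at the other 6 stages. It was also the stage with the most calls of the 7, 1671, the 2-cell stage following with 1121. At the 8-cell stage 158 genes were higher in NT-D (2.15%) and 293 lower (3.99%), and in the trophectoderm part of the blastocyst (TE) 456 were higher (6.84%) and 307 lower (4.6%). The remaining part of the blastocyst, which held inner cell mass together with trophectoderm, is called IT.

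**Figure D1:**
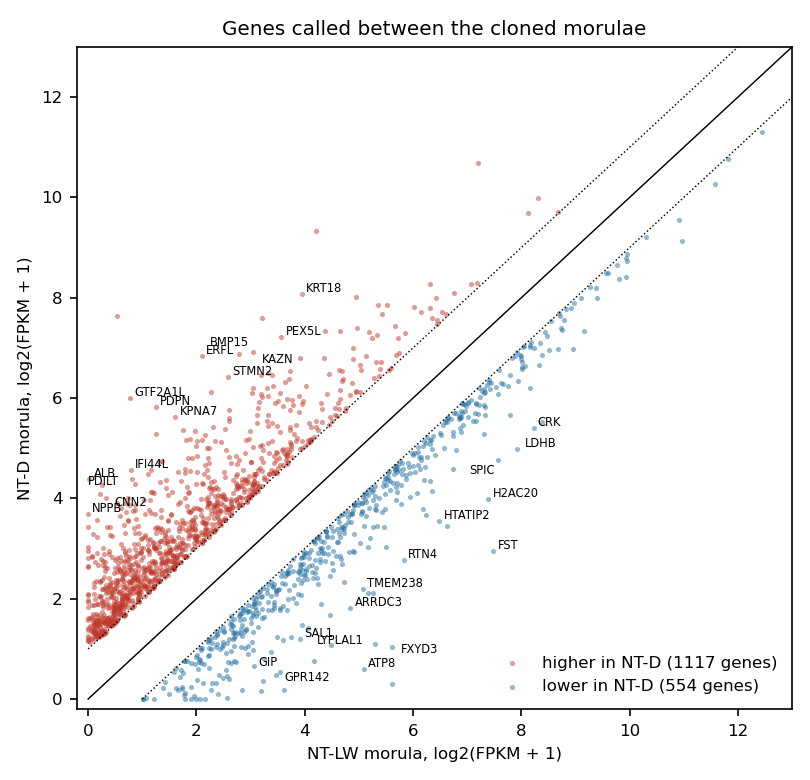
The genes called between the cloned morulae, each point a gene, with its level as log2(FPKM + 1) in the NT-LW library (horizontal axis) and in the NT-D library (vertical axis). The solid line marks equal levels and the dotted lines a difference of 1. The 1117 genes higher in NT-D (red) reach farther from the line than the 554 lower (blue), and names mark genes among the 15 largest gaps on each side.

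Among the 15 largest differences higher in NT-D, 7 were genes of the oocyte. GTF2A1L, a germ cell form of a general transcription factor on chromosome 3 (91991690 to 92083062), was at 62.9 FPKM in NT-D, 0.71 in NT-LW and 10.3 in IV-D, a ratio of the clones of 88.7 (interval 59.4 to 139). BMP15, a growth factor that oocytes secrete, encoded on the X chromosome (44613122 to 44620575), was at 116 in NT-D, 5.90 in NT-LW and 0.585 in IV-D. In both genes NT-D was the highest of the 3 morulae. IV-D lay nearer to NT-LW for BMP15 and, on the log2 scale, nearer to NT-D for GTF2A1L. KPNA7, the importin of the oocyte and early embryo, was at 48.4, 2.06 and 1.01 in the same order. PEX5L, a cytoplasmic protein related to a peroxisomal import receptor, was at 149, 10.9 and 5.81. ERFL, named for an ETS repressor, was at 114, 3.29 and 2.23. These transcripts had been abundant in the recipient oocyte, where KPNA7 was at 779, PEX5L at 220 and BMP15 at 121 FPKM. KAZN, which encodes kazrin of the desmosome, was at 119, 7.27 and 7.91, the highest value of KAZN in the 23 libraries.

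Another 3 of the 15 were genes that rise toward the blastocyst. The keratin KRT18 was at 269 FPKM in NT-D, 14.5 in NT-LW and 200 in IV-D, so that here the in vivo morula stood with the Duroc clone. PDPN, the membrane glycoprotein podoplanin, was at 55.3, 1.38 and 11.2, and was at 270 in NT-D and 257 in NT-LW in TE. NPPB, a natriuretic peptide, was at 11.9 in NT-D with 243 fragments and had 0 fragments in NT-LW. Set against a floor of 3 fragments in that library, NPPB was at least 75.6-fold higher in NT-D. KRT18 did not keep that order of the clones in TE, where it was at 917 in NT-D and 1593 in NT-LW.

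The remaining 5 fell in neither group. STMN2, which destabilises microtubules, was at 84.9 in NT-D, 5.02 in NT-LW and 43.3 in IV-D. It was called higher in NT-D in TE as well, at 47.3 against 7.76. Albumin (ALB) was at 20.0 in NT-D with 1268 fragments, whereas NT-LW had 1 fragment and IV-D was at 0.0283. The ratio of the clones for ALB, 1183, had an interval of 212 to 46778, and no other library of the 23 was above 6.25. PDILT, a chaperone known from the testis, was at 16.1, 0.164 and 0.794. IFI44L, an interferon-induced gene, was at 22.6, 0.722 and 1.95. Those 3 were higher in the NT-D morula than in any other library, so each rests on 1 library. CNN2, the actin-binding calponin 2, was at 15.1 in NT-D, 0.263 in NT-LW and 0.303 in IV-D.

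Of the 15 largest differences lower in NT-D, FXYD3, a regulator of the sodium pump, came first, at 1.06 FPKM in NT-D, 48.0 in NT-LW and 0.556 in IV-D. FST, on chromosome 16 (32806341 to 32811382), was at 6.74 in NT-D, 178 in NT-LW and 20.6 in IV-D, a fold of 26.4 (interval 22.2 to 31.7). Both genes peaked in the NT-LW morula alone, where FST was above its next value in any library, 52.4. In 10 of these 15 genes IV-D lay nearer to NT-D than to NT-LW, and in 11 of the 15 higher genes it lay nearer to NT-LW. SPIC, an ETS factor of the inner cell mass, was an exception, at 26.3 in NT-D, 190 in NT-LW and 310 in IV-D. TMEM238, a small membrane protein, was at 3.55, 32.6 and 43.8.

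Several of them encode enzymes or parts of signalling chains. LDHB, the lactate dehydrogenase subunit of oxidative tissues, was at 30.8 in NT-D, 240 in NT-LW and 39.1 in IV-D. CRK, an adaptor of tyrosine kinase signalling on chromosome 12 (47656805 to 47685641), was at 41.3, 299 and 62.4. LYPLAL1, a hydrolase related to lysophospholipases, was at 1.14, 38.4 and 14.8. These 3 were lower in NT-D at the 8-cell stage, in IT and in TE too. HTATIP2, an oxidoreductase that binds the nuclear transport machinery, was at 10.6, 88.8 and 11.4. ARRDC3, an arrestin-like adaptor for receptors, was at 2.51, 27.7 and 4.34. Both were also far above IV-D in NT-LW. RTN4, a reticulon of the endoplasmic reticulum, was at 5.81, 56.2 and 7.94, after 177 in NT-D and 135 in NT-LW at the 8-cell stage.

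Others were at low levels or are hard to count. The gut hormone GIP was at 0.455 in NT-D and 10.6 in NT-LW, the receptor GPR142 at 0.390 and 10.02, and the lipocalin SAL1 at 1.30 and 14.0. The histone gene H2AC20 was at 14.8 and 167, but it belongs to a family of near-identical copies between which reads cannot be assigned with confidence. ATP8 of the mitochondrial genome was at 0.519 in NT-D, from 2 fragments, 33.1 in NT-LW and 284 in IV-D. It overlaps ATP6, which went the other way (31121 in NT-D and 19114 in NT-LW), so the value of ATP8 depends on how reads of the overlap were counted.

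**Figure D2:**
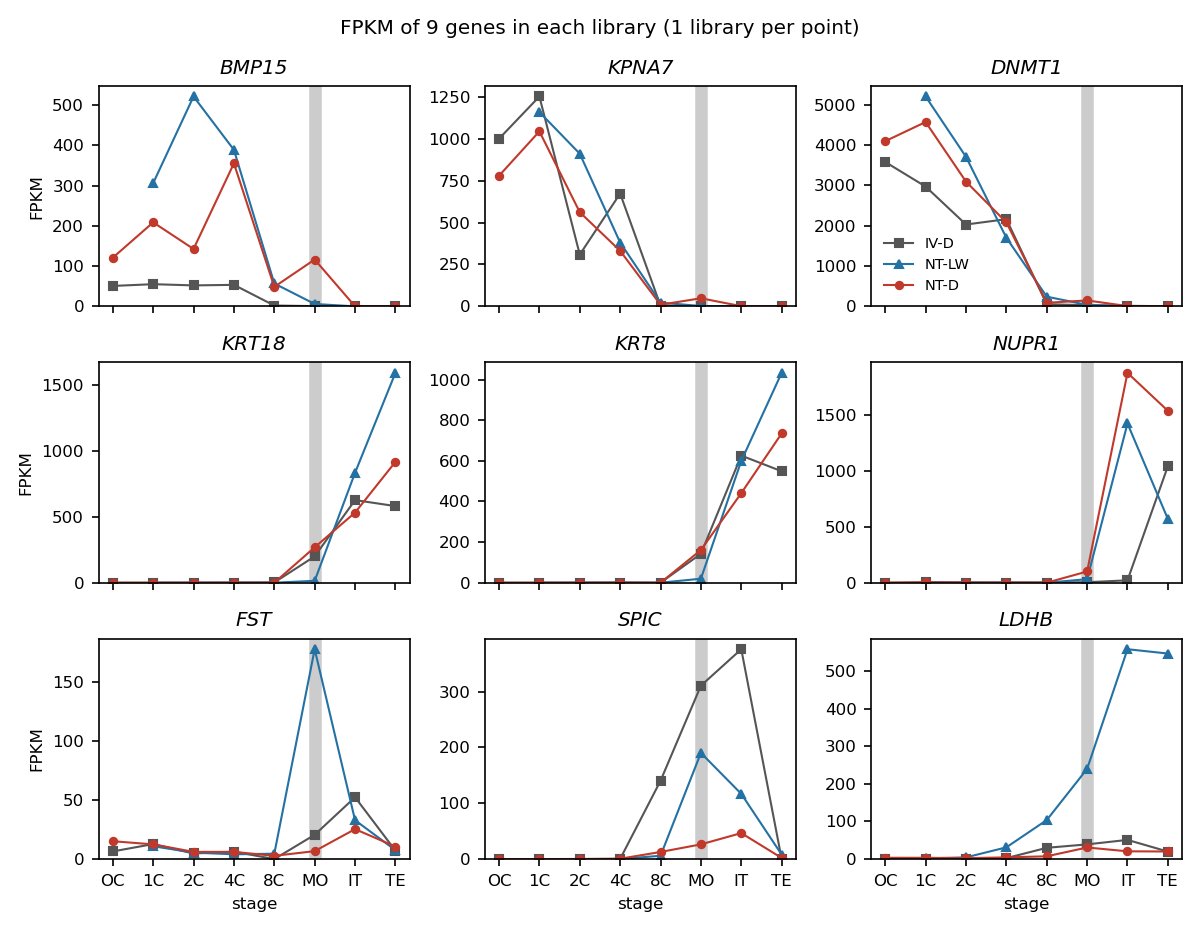
FPKM (vertical axis, linear) of 9 genes at each stage from the oocyte (OC) to the IT and TE parts of the blastocyst (horizontal axis), 1 library per point, in IV-D (grey squares), NT-LW (blue triangles) and NT-D (red circles). The grey band marks the morula, and the recipient oocyte is drawn with NT-D. BMP15 stood at 116 in the NT-D morula after 48.4 at the 8-cell stage, KRT18 and KRT8 were at or near 0 in both clones at the 8-cell stage, and FST peaked at 178 in the NT-LW morula.

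The list of fibroblast markers had 1 of 5 higher and 1 lower, FBN1 and S100A4, and that of cumulus cells 0 of 2 called. Those 2 cumulus genes were not low, with a summed FPKM of 115 in NT-D, 85.3 in NT-LW and 47.8 in IV-D. List counts, here and below, stand beside 14.1% of genes higher and 7.02% lower over all genes tested. The oocyte transcripts were the list with the largest shift. Of 19 tested, 15 were higher in NT-D, 0 were lower and 4 were not called, and the median difference was 2.12 against 0.04 over all genes tested. The list held zona pellucida glycoproteins, of which ZP2 was at 8.11 in NT-D, 2.34 in NT-LW and 1.45 in IV-D, and ZP3 at 3.99, 0.432 and 0.542, whereas ZP4, at 18.7 and 15.2, was not called. Regulators of meiosis were among the members called. WEE2, the oocyte kinase that holds meiosis, was at 72.8 in NT-D, 8.89 in NT-LW and 4.54 in IV-D. BTG4, which recruits the deadenylase that clears maternal transcripts, was at 111, 14.0 and 2.72. The linker histone of the oocyte, H1-8, was at 160, 24.2 and 3.82. In all 3 of these the order was NT-D, NT-LW, IV-D. GDF9, the partner of BMP15, was at 18.5, 3.34 and 1.01, and UCHL1, an abundant ubiquitin hydrolase of oocytes, at 158, 35.6 and 1.30.

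To see how far this went beyond the list, genes were grouped by their course in the IV-D libraries, with every morula left out. The limit and the classes were chosen after the values had been seen. The blastocyst level was the mean of the log2 levels of IV-D IT and TE, so class genes can still be high in IT or TE. Genes at least 2 higher on the log2 scale in the IV-D oocyte than in both the 8-cell embryo and the blastocyst made up an oocyte class, of which 929 were tested. In that class 495 were higher in NT-D, or 53.3%, and 22 were lower, with a median difference of 1.07. They were 44.3% of all genes called higher. The 8-cell class held genes at least 2 higher in the IV-D 8-cell embryo than in both the oocyte and the blastocyst mean. That class went the other way, with 16 higher and 81 lower of 246 and a median of -0.58. In the blastocyst class 77 were higher and 27 lower of 335, with a median of 0.36, and among the 6385 genes in no class 529 were higher and 424 lower. With a class limit of 3 in place of 2, 299 of 466 oocyte class genes were higher and 6 lower, and 12 and 41 of 89 in the 8-cell class.

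The oocyte class was not lower in NT-LW from the start. The median FPKM of its tested genes at the 8-cell stage was 5.33 for NT-D against 7.43 for NT-LW, and at the morula 7.73 against 2.95, while IV-D went from 2.45 to 1.59. From the 8-cell stage to the morula, 279 of 975 genes of the class were called higher in NT-D and 102 lower, against 14 higher and 451 lower of 949 in NT-LW and 19 and 164 of 690 in IV-D. These steps use the same morula libraries as the breed comparison. Taken against the recipient oocyte, for the 888 genes of the class at FPKM of at least 10 there, the median level left at the 8-cell stage was 12.2% for NT-D against 16.2% for NT-LW. At the morula it was 17.2% in NT-D (quartiles 8.18% and 29.8%), 5.90% in NT-LW (2.24% and 14.1%) and 3.35% in IV-D. In IT it was 2.07% and 2.44%, so the clones lay close together again 1 stage later. Whether the pool of NT-D morulae held embryos or oocytes of an earlier stage was not tested.

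**Figure D3:**
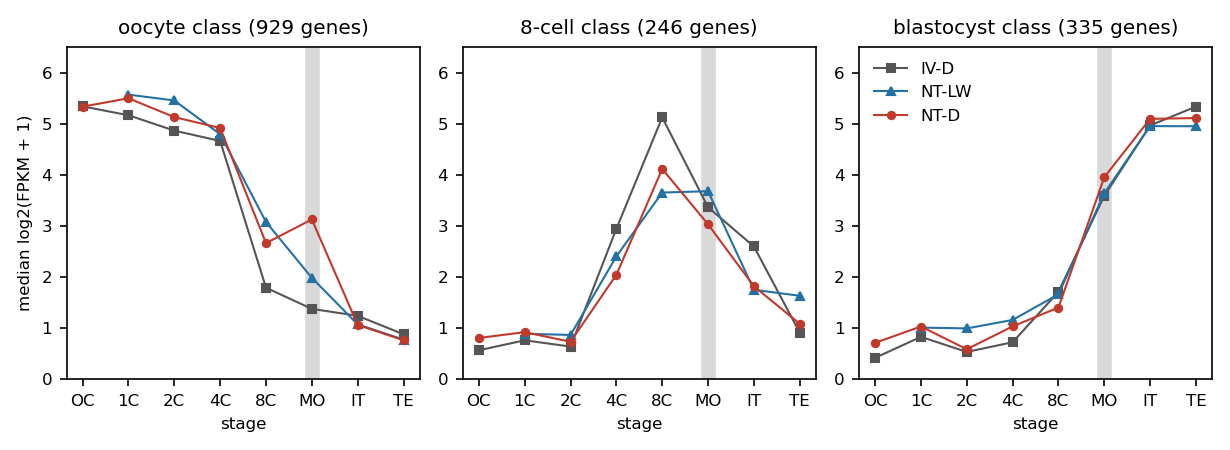
Median log2(FPKM + 1) over the genes of 3 classes (vertical axis) at each stage (horizontal axis) in IV-D (grey squares), NT-LW (blue triangles) and NT-D (red circles), 1 library per point, with the classes defined from the IV-D libraries other than the morula. In the oocyte class the NT-D median went from 2.66 at the 8-cell stage to 3.13 at the morula (grey band) while NT-LW went from 3.07 to 1.98. In the 8-cell class NT-D was the lower clone at the morula, at 3.03 against 3.68.

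Trophectoderm factors and keratins leaned to NT-D, and here IV-D was mostly on the side of NT-D. Of 22 tested, 8 were higher in NT-D, 1 was lower and 13 were not called, with a median of 0.59. The keratins KRT8 and KRT18 pair into the first intermediate filaments of the embryo and lie on chromosome 5, KRT8 at 18172423 to 18180277 and KRT18 at 18217686 to 18221432, on opposite strands. KRT8 was at 161 FPKM in NT-D, 19.8 in NT-LW and 142 in IV-D, a ratio of 8.13 (interval 7.67 to 8.62). For KRT18 the ratio was 18.6 (interval 17.3 to 20.0). In both clones the keratins were at or near 0 at the 8-cell stage. The tight junction gene CLDN6 was at 109, 28.7 and 138, CLDN4 at 36.2, 17.1 and 57.0, and PLET1, a surface protein of trophoblast, at 16.6, 1.24 and 27.2. The in vivo value was on the NT-D side for all 5 of these. It was not for GATA2, a transcription factor of trophoblast, at 7.56, 0.805 and 1.13. AMOTL2 and TEAD1 of the Hippo pathway were called higher as well. Its target CCN2 was the member lower in NT-D, at 7.76 against 19.4 and 5.16 in IV-D. TEAD4 and GATA3, which act upstream in the lineage, were at 19.2 and 14.3 and at 3.17 and 1.59 in NT-D and NT-LW, and neither was called.

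Their promoters are shown because this pair differed together. The sequences are the 250 bases before the RefSeq start of each gene in Sscrofa11.1, a Duroc genome, 5′ to 3′ on the strand of the gene, and capitals mark matches to the motifs named next. KRT8 is at chr5:18180278-18180527 (minus strand) and KRT18 at chr5:18217436-18217685 (plus strand). FST, the second of the differences lower in NT-D, is at chr16:32806091-32806340 (plus strand).
KRT8: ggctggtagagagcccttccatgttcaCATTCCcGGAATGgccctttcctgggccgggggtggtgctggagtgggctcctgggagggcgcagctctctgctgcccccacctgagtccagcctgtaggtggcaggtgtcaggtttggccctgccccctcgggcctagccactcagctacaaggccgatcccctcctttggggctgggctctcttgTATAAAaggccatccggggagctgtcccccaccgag
KRT18: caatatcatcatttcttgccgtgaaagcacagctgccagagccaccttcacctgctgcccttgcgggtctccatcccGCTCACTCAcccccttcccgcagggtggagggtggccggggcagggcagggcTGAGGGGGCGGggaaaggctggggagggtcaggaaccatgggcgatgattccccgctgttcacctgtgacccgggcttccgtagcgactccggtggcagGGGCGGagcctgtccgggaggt
FST: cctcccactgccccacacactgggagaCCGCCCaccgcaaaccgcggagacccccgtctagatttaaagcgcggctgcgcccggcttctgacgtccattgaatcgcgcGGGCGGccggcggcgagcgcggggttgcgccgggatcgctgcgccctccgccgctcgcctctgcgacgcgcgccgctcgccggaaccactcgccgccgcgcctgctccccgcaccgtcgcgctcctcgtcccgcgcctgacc

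KRT8 had a TATA box, TATAAA, 36 bases before its start and a pair of TEAD sites, GGAATG on either strand, at 223 and 216. KRT18 had none of these and held GC boxes, GGGCGG, at 116 and 22, the former overlapping a match to the antioxidant element TGANNNNGC at 121, with another at 173. FST had GC boxes at 223 and 142. Over the 6326 tested genes with a 300-base window (250 before to 50 after the start), 8.204% held a TATA box, 10.8% a TEAD site and 64.0% a GC box, both strands searched. In the 848 genes higher in NT-D with a window the shares were 10.1%, 11.2% and 57.2%, and in the 372 lower 10.5%, 11.8% and 56.2%. The other motifs were the CCAAT box (CCAAT), at 36.0%, 40.3% and 38.3% of higher, lower and all windows, the AP-1 site TGANTCA at 4.13%, 5.38% and 4.35%, the E-box CACGTG at 8.84%, 8.06% and 10.4%, the antioxidant element at 40.4%, 40.6% and 42.1%, and the heat shock element GAANNTTC at 7.19%, 7.26% and 5.93%. The GC box was thus less frequent in both called sets than in all windows, and it was at 52.4% in the windows of the tested oocyte class. That difference was not tested. For the other motifs the shares of the called genes were near those of all windows.

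In the list of pluripotency and inner cell mass factors 0 of 17 were higher and 2 were lower, the median being 0.03. DPPA2, a factor of early embryos, was at 81.6 in NT-D, 168 in NT-LW and 149 in IV-D and joined SPIC. Both belong to the 8-cell class, although SPIC was at 376 in IV-D IT against 140 in the IV-D 8-cell embryo. KLF17, KLF5 and TBX3 were each within 0.15 of equality on the log2 scale. Among hypoblast factors 3 of 13 were higher and 1 lower, 11 lay above 0 and the median was 0.63. Among the 3, APOE, a lipid carrier, was at 9.93, 0.899 and 0.425 and the apolipoprotein APOA1 at 4.69, 0.812 and 0.765. The signal RSPO3 had 0 fragments in NT-D and 70 in NT-LW, at least 25-fold lower in NT-D. Adhesion and compaction genes had 4 of 31 higher, a share below the 14.1% over all genes tested, and 0 lower, with a median of 0.43. The 4 included the desmosome proteins JUP (18.6, 7.18 and 15.5) and PKP2 (21.3, 9.19 and 17.5) and the actin cross-linker ACTN4 (4.65, 1.39 and 2.63), and in each of these IV-D lay between the clones.

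**Figure D4:**
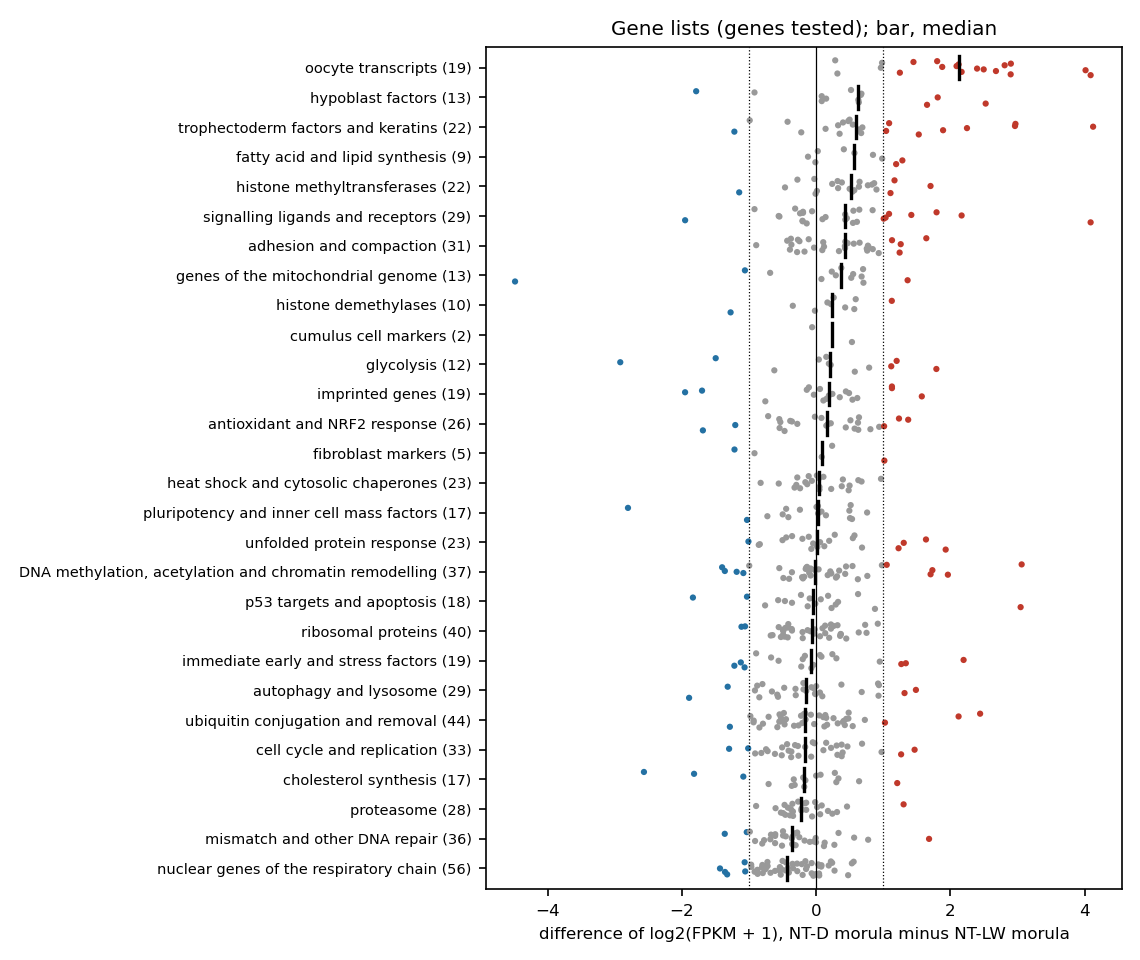
Difference of log2(FPKM + 1) between the cloned morulae (horizontal axis, NT-D minus NT-LW) for the tested genes of 28 lists, 1 point a gene, red where called higher in NT-D, blue where called lower and grey otherwise, with the median as a bar and the number tested in brackets. Oocyte transcripts had the highest median, 2.12, and nuclear genes of the respiratory chain the lowest, -0.44.

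The lists of energy metabolism did not share a direction. Of 56 nuclear genes of the respiratory chain, 0 were higher in NT-D, 5 were lower and 51 were not called, but 43 lay below 0 and the median was -0.44. In the shortest length bin of all genes the median was -0.14, and in the lowest exon GC bin it was -0.31. The part of length and GC in the shift of the list was not tested. The summed FPKM of the list was 20849 in NT-D, 27496 in NT-LW and 28422 in IV-D. The 5 were the complex I subunit NDUFB1 (21.8 in NT-D and 60.6 in NT-LW), COX7A2L (56.9 and 147), COX7C, UQCR10 and the ATP synthase subunit ATP5ME (168 and 424). The genes of the mitochondrial genome did not follow them. Of 13, 10 lay above 0 with a median of 0.37, and COX1 was called higher, at 24163 in NT-D, 9405 in NT-LW and 10429 in IV-D, with ATP8 and ND4L called lower. In glycolysis 9 of 12 lay above 0, with a median of 0.20. ENO1, which makes phosphoenolpyruvate, was at 225, 64.2 and 161, and GPI and PFKL were called higher as well. PGK1, the ATP-yielding kinase of the same pathway, was lower, at 66.6 against 190 and 85.8, as was LDHB. Cholesterol synthesis had 1 higher and 3 lower of 17, the latter the transport protein STARD4 (11.8, 74.9 and 24.0) and the enzymes SC5D (9.84, 37.3 and 13.1) and MSMO1 (28.9, 62.5 and 23.6). The former was FDFT1, a gene of the oocyte class, at 41.9, 17.6 and 6.33. Lipid synthesis had 2 of 9 higher, ACSL3 (58.8 and 23.6) and ACACA (1.999 and 0.314), and 0 lower, with a median of 0.57.

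Chromatin genes were found on both sides. The shares higher among genes of DNA methylation, histone methyltransferases and imprinted genes were near the 14.1% over all genes tested. Of 37 genes of DNA methylation, acetylation and remodelling, 5 were higher and 4 lower. UHRF2, a relative of the protein that guides maintenance methylation, was at 257 in NT-D, 29.9 in NT-LW and 20.1 in IV-D, and DNMT1, the maintenance methyltransferase, at 147, 37.0 and 28.7. Both belong to the oocyte class, and DNMT1 had been at 4097 in the recipient oocyte and at 88.7 in NT-D and 240 in NT-LW at the 8-cell stage. The acetyltransferase KAT2A was at 4.65, 0.703 and 2.47, and DNMT3A and UHRF1 were called higher as well. The deacetylases HDAC3 (4.49 and 11.5), HDAC8 (4.98 and 14.4) and SIRT2 (1.12 and 4.60) were lower. HAT1 was the other gene lower. Of 22 histone methyltransferases 3 were higher, NSD3 (15.6 and 4.10), SETDB1 (3.71 and 1.10) and ASH2L (10.7 and 4.41), and all 3 belong to the oocyte class. EED, a core subunit of the Polycomb complex that methylates H3K27, was lower, at 129 against 287 and 210 in IV-D. Among 10 demethylases KDM6B was higher (4.60 and 1.57) and JMJD1C lower (5.48 and 14.7). Of 19 imprinted genes, MEST (3.42 and 0.486), TSSC4 and ZNF445 were higher, and PON2 (6.69 and 28.8) and SGCE (1.71 and 7.83) lower.

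In the unfolded protein response 4 of 23 were higher and 1 lower, with a median of 0.02. ASNS, the asparagine synthetase of the amino acid response, was at 153 in NT-D, 39.4 in NT-LW and 4.76 in IV-D, and NUPR1, a stress-induced chromatin protein, at 100, 31.6 and 4.47, so both clones were above the in vivo morula. HERPUD1 (12.5 and 4.47) and ATF6 were higher too, whereas the chaperone HSPA5 was lower (58.8 and 119). Among p53 targets and apoptosis genes the survival factor BCL2L1 was higher, at 32.0 against 3 and 2.59 in IV-D, and the death factor PMAIP1 and the sestrin SESN1 were lower, at 19.6 against 72.7 and 21.9 against 45.8. That made 1 higher and 2 lower of 18. Heat shock chaperones had 0 called of 23. Of 26 antioxidant genes 3 were higher, SLC7A11 (4.39 and 1.09), SOD2 (18.6 and 7.33) and MAFG (6.18 and 2.56), and the ferritin FTL (3.01 and 11.9) and MGST1 (2.32 and 6.65) were lower. Cell cycle genes had CDKN2B (3.32 and 0.563) and CCND2 (6.15 and 1.98) higher and the licensing inhibitor GMNN (57.7 and 143) and the checkpoint protein MAD2L1 (119 and 242) lower, of 33. In DNA repair PALB2 was higher (15.9 and 4.26) and RPA3 (30.6 and 80.3) and XRCC2 (13.6 and 28.9) lower, of 36, with 29 below 0 and a median of -0.36.

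Signalling genes had 7 of 29 higher and 1 lower. Beside BMP15 and GDF9, the Notch ligand JAG1 was at 5.03, 0.741 and 0.318, and HBEGF belonged to the oocyte class with them. EREG, ERBB2 and IGF1R, a ligand and receptors of growth factor signalling, were called higher too. The chemokine receptor CXCR4 was lower, at 4.92 against 21.9, with IV-D at 34.0. Among immediate early genes IER3 (61.0 and 12.5), EGR1 (1.75 and 0.0911) and DUSP5 (2.97 and 0.649) were higher, and FOS (12.6 and 28.7), BTG1 (9.74 and 21.5) and CCN2 lower, of 19. Ubiquitin genes had 3 higher and 1 lower of 44, with USP2 (8.88 and 0.819), UCHL1 and UBE2A (54.5 and 26.3) against CUL2 (27.4 and 68.3). Autophagy and lysosome genes had 2 and 2 of 29, with the lysosomal enzyme CTSA (3.73 and 0.901) among the former, against ASAH1 (7.69 and 31.3) and MAP1LC3B (87.5 and 220). The proteasome had PSMD3 higher (14.4 and 5.25) of 28. Of 40 ribosomal protein genes, which have many processed copies, RPS28 (255 and 552) and RPS29 (138 and 289) were lower and none higher, with a median of -0.06.

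Against the in vivo morula the 2 directions were unlike. Of the 1117 genes higher in NT-D, IV-D was nearer to NT-LW in 938, or 84.0%, on the log2 scale, and beyond NT-LW in 637. Of the 554 lower in NT-D, it was nearer to NT-LW in 193, or 34.8%, and lay between the clones in 357. The median distance of IV-D from NT-D was -1.56 for the higher genes and 0.46 for the lower. Over all genes r was 0.952 between IV-D and NT-LW and 0.923 between IV-D and NT-D, and with the recipient oocyte it was 0.425 for NT-LW and 0.504 for NT-D. The counts by distance use the libraries that made the calls.

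Most of the calls were not repeated in the libraries before and after. Of the genes higher in NT-D at the morula, 870 were tested at the 8-cell stage, and 26 of them were higher there (2.99%) and 76 lower (8.74%), the background being 2.15% and 3.99%. In TE 73 of 578 were higher (12.6%) and 37 lower (6.401%), against 6.84% and 4.6% over all genes. Of the genes lower in NT-D, 43 of 523 were lower at the 8-cell stage (8.22%) and 58 of 454 in TE (12.8%). In IT 52 of 634 of the higher set were higher (8.202%), against 2.70% over all genes, and 39 of 484 of the lower set were lower (8.06%), against 2.54%. The shares in the same direction were thus above those of all genes for both sets at these 3 stages. The shares in the opposite direction were above those of all genes too, for both sets at these 3 stages. Of the lower set, 29 were higher at the 8-cell stage (5.54% against 2.15%), 26 in IT (5.37% against 2.70%) and 33 in TE (7.27% against 6.84%). Of the higher set, 21 were lower in IT (3.31% against 2.54%).

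A set of 18 genes was called the same way at the 8-cell stage, the morula, IT and TE, 9 in each direction, and they are named because the set is small, after their values were seen. Those with a symbol that were higher in NT-D were GALM, KCNE1, TIGAR, MYL9 and CMBL. KCNE1, a potassium channel subunit, was at 68.0 in the NT-D morula, 10.7 in NT-LW and 32.2 in IV-D, and TIGAR, a regulator of glycolysis, at 17.7, 5.80 and 19.9. Those lower were LYPLAL1, MAT2B, LDHB and CRK. LDHB was at 7.38, 30.8, 20.7 and 20.2 in NT-D at these 4 stages and at 104, 240, 558 and 547 in NT-LW. CRK was at 32.7, 41.3, 51.7 and 35.0 in NT-D and at 412, 299, 472 and 315 in NT-LW. The widest gap was that of the unnamed gene ENSSSCG00000035894, at 154, 197, 483 and 321 in NT-D and at 2.95, 0.455, 0.187 and 0.227 in NT-LW. The IV-D morula was nearer to NT-D in 8 of the 9 higher genes and 7 of the 9 lower. At the 1-cell stage, where RNA comes from the oocyte, 0 of the 9 higher and 1 of the 9 lower were called the same way.

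The calls also moved with properties of the genes. Exon GC, known for 6338 tested genes, had a median of 49.3% among genes higher in NT-D, 43.1% among those lower and 46.6% over all. In the lowest of 10 GC bins 7.26% of genes were higher and 11.5% lower, and in the highest 22.1% and 2.21%. Spearman's rho of the difference with GC was 0.27 across genes at the morula. At the other stages it was 0.34 (1-cell), -0.42 (2-cell), -0.20 (4-cell), 0.06 (8-cell), -0.10 (IT) and -0.13 (TE). With the median of each GC bin subtracted, a step added after the data were seen, 750 genes were higher in place of 849 and 373 lower as before, 687 and 289 of them shared. Of the 694 oocyte class genes with a GC value, whose median GC of 44.0% is below that of all genes, 373 were then higher in place of 363. The blastocyst class lay above all genes, at a median GC of 56.4%, with 59.0% among its genes higher in NT-D. Among genes in no class, those higher had a median of 52.0% and those lower 43.1%. Genes lower in NT-D were shorter, with a median length of 2254.5 bases against 3049 for those higher and 3137 over all. In the shortest of 10 length bins 15.9% were lower in NT-D and in the longest 2.15%. The part of GC and length in the differences was not tested. The X chromosome held 4.12% of placed genes higher in NT-D, 4.55% of those lower and 3.66% of those tested.

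**Figure D5:**
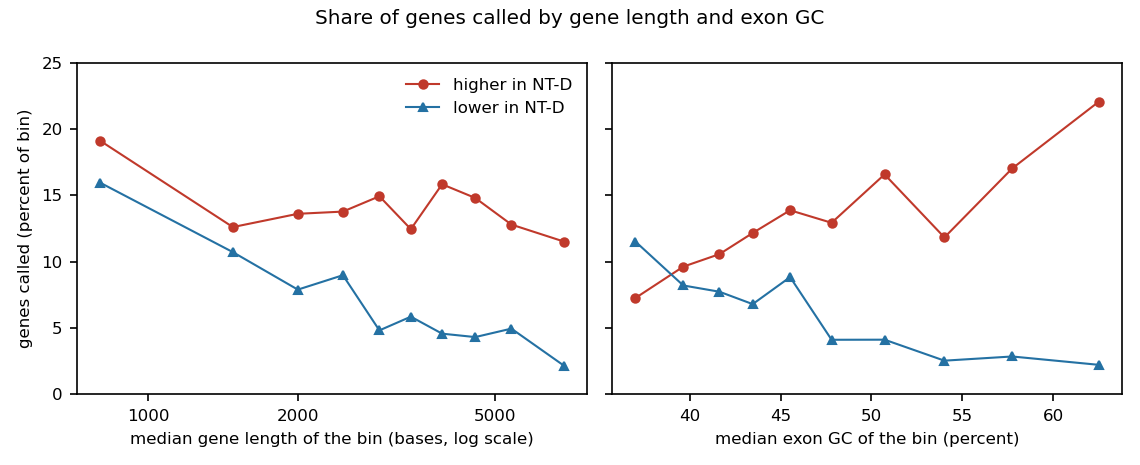
Percent of tested genes called higher (red circles) or lower (blue triangles) in NT-D in 10 bins of gene length (left, log scale) and 10 bins of exon GC (right), each point at the median of its bin. The share lower went from 15.9% to 2.15% with length, and the share higher from 7.26% to 22.1% with GC.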

How the data were processed

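The authors made cDNA from pooled embryos with the SMART-Seq v4 kit, aligned paired-end reads to Sscrofa11.1 by HISAT2 2.0.4, counted fragments with HTSeq 0.9.1 and deposited FPKM values of 8603 genes. The table is named as one of differentially expressed genes. The comparison behind that choice and whether counting used strand are not given in the sources used here, so overlapping genes cannot be separated. The reference is a Duroc genome, and its effect on Laiwu reads was not tested. Symbols matched for 7371 genes, and 6853 had 1 position in RefSeq of Sscrofa11.1. Whole fragments were recovered from the FPKM steps for 8602 genes (within 0.02 of a whole number). On simulated data for this comparison, 99.99% of 8602 genes had every fragment recovered, and 200 of 200 genes with an 8-fold change were called. Those 200 were drawn from the more expressed genes, with counting noise only and no variation between pools. The simulation thus checks the code and does not bear on calls near the limit.

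The pseudocount was 1. The text names the 15 largest called gaps in log2(FPKM + 1) on each side, among genes with a symbol that reach FPKM 10, up to 3 called genes per list and direction, and the markers. A few genes that the rule names are not reported here. Members of small groups were named after their values were seen, as were the stage classes and class limits. The members and the 28 gene lists were chosen with earlier results of these data known. Alternatives changed the pseudocount, minimum, limit, scaling and fold rule. Intervals came from scipy 1.17.1, tables from pandas 2.3.3 and plots from matplotlib 3.10.9, under Python 3.11.15.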

Additional observations from a re-analysis of the deposited data

Results flagged for a closer look

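Among the 15 largest differences higher in NT-D, 5 of the genes reported here went opposite ways from the 8-cell stage to the morula. They stepped by more than 1 on the log2 scale, up in NT-D and down in NT-LW. The difference was not tested, since each group has 1 library per stage. The NT-D step minus the NT-LW step was 5.14 for KPNA7, 4.46 for ERFL, 4.32 for BMP15, 4.25 for GTF2A1L and 4.06 for PEX5L. All 5 belong to the oocyte class. WEE2, UCHL1 and NSD3, named from the gene lists, stepped this way too. Among all called genes, 111 of those higher in NT-D stepped this way, and 20 of those lower in NT-D stepped down in NT-D and up in NT-LW. In either set 0 stepped the contrary way. The calls and the steps share the morula libraries, so the direction of the steps is not independent of the calls.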

How the results depend on the processing

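Every alternative kept more genes higher than lower in NT-D. A minimum FPKM of 5 left 723 genes higher, and a limit of 2 left 240 higher, 59 lower and 299 in all, 80.3% of them higher. Requiring the counting interval to lie beyond 2-fold left 1053 higher and 479 lower, and a pseudocount of 0.1 called 1487 and 705, within 1.5 times the reported counts. Rescaling to a sum of 1000000 called 1270 and 722, median-ratio scaling 1024 and 652, and trimmed-mean scaling 991 and 699, so that the higher share of calls went from 66.8% to 63.8%, 61.1% and 58.6%. The scalings turned the sign of 3 list medians, all near 0: unfolded protein response (-0.0439, -0.0444 and -0.0647 in that order), heat shock chaperones (-0.0211, -0.0287 and -0.0559) and pluripotency factors (-0.0361, -0.0428 and -0.0695). Under the pseudocount and these scalings, none of the 30 largest differences and none of the other 25 list medians changed sign. The oocyte class had 463 to 581 genes higher under the same alternatives. No replicate exists to leave out, and no paired analysis was possible because each group has 1 library per stage. The differences at the 8-cell stage, IT and TE stand beside the morula values in the report. Depth limits genes of few fragments, such as ALB and ATP8.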

Other observations

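A few genes were high in a single cloned morula and nowhere else. Of the 15 largest differences in each direction, 4 of the genes higher in NT-D had their highest value of the 23 libraries in the NT-D morula, and 6 of the lower ones had theirs in the NT-LW morula. IFI44L was at 22.6 FPKM in the NT-D morula and at most 2.06 elsewhere, and PDILT at 16.1 and at most 4.22. ARRDC3 was at 27.7 in the NT-LW morula and at most 8.13 elsewhere, and FXYD3 at 48.0 and at most 14.1. Other margins were narrow. KAZN was at 119 in the NT-D morula and 94.0 in the NT-LW 1-cell library, and LYPLAL1 at 38.4 in the NT-LW morula and 33.7 in NT-LW IT.

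ATP8 and ATP6 overlap on the mitochondrial genome, and their levels did not run together. ATP8 was at 0.519 FPKM in the NT-D morula, 110 at the NT-D 8-cell stage and 152 in NT-D IT, and it was at 0 in the NT-LW 4-cell library, where ATP6 was at 39467. How fragments of the overlap were assigned is not given in the sources used here.

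Some genes that differed in all 4 late libraries of the clones have no symbol. ENSSSCG00000034642 was at 125, 48.1, 8.05 and 6.25 FPKM in NT-LW at the 8-cell stage, the morula, IT and TE and at 0.561, 0.229, 0.511 and 0.278 in NT-D, with IV-D at 0.616 at the morula.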
